A study of Homo sapiens with 8 samples.

Results

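Tubuloside B (Tub B), a phenylethanoid glycoside of medicinal plants, was given alone to MH7A cells, and their poly(A) RNA was compared with that of mock cells. MH7A is an immortalised human line derived from rheumatoid arthritis synovium and serves as a stand-in for fibroblast-like synoviocytes. The comparison takes the 4 libraries labelled mock or Tub B, 2 of each, from the 8 libraries of the series. The other 4 libraries come from cells given tumour necrosis factor (TNF) without or with Tub B (TNF and TNF + Tub B) and are used for the spread and for 1 side comparison. Tub B was used at 60 µM for 24 h, added after a first culture period on 6-well plates. Mock cells are described as untreated in the design text, whereas their label names DMSO, the usual solvent. For TNF, given for 24 h, the design text states 20 ng/mL and the treatment label of the TNF group a per-microlitre amount. All groups are the same cell line, so the results describe 1 immortalised line and not tissue from patients. The labels do not state whether the 2 libraries of a group are from different cultures. The p-values therefore reflect the spread between libraries of the same group, estimated over all 8 libraries together, and that spread may be technical.

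Mock libraries held 28035754 and 18041883 counts in all, and Tub B libraries 20843251 and 18987139. Of 38173 gene symbols with reads, 16647 had enough counts to be tested. The mock libraries differed from each other more than the libraries of any other group, with a chi-square per degree of freedom of 4.77 against 2.50 in Tub B and 2.16 and 2.33 in the groups with TNF. Fibroblast markers were abundant: COL1A2, a chain of type I collagen, stood at 11408 ± 1422 CPM (library-scaled counts, as a rate per 1e6 counts; SD, n = 2) in mock and 11754 ± 354 CPM in Tub B, and the surface marker THY1 at 889.5 ± 45 and 797 ± 48.5 CPM. PRG4, the lubricin gene of the synovial lining, and VCAM1 had at most 9 and 2 counts in any of the 4 libraries. Of 12 leukocyte markers, 3 had enough counts to be tested. The 3 markers summed to 3.16 and 3.33 CPM in mock and 2.89 and 3.85 CPM in Tub B, and CD3E had 0 counts throughout. Expression levels are given as CPM of each library in order of replicate, and differences as log2 fold changes ± SE with the adjusted p of edgeR.

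By way of background, phenylethanoid glycosides carry catechol groups that can be oxidised to quinones, and electrophiles of this kind can modify KEAP1, the sensor protein that keeps the transcription factor NRF2 (gene NFE2L2) in check. Released NRF2 pairs with small MAF proteins and binds antioxidant response elements in front of genes for glutathione, thioredoxin, NADPH supply, quinone reduction and iron storage. The aryl hydrocarbon receptor (AHR) is a second sensor of small aromatic molecules, and cytochrome P450 genes of the CYP1 family are its classical targets. Fibroblast-like synoviocytes line the joint, make its matrix and hyaluronan, and in rheumatoid arthritis secrete cytokines and proteases. TAK1 (gene MAP3K7), the kinase named in the title of the series, passes the TNF signal on to NF-κB and MAP kinases. Phosphorylation was not measured here.

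Tub B changed many genes by small amounts and a smaller set, some redox genes among them, by at least 2-fold. At an adjusted p below 0.05, 2120 genes were called, 804 of them higher with Tub B (4.83% of the genes tested) and 1316 lower (7.91%). Their median absolute log2 fold change was 0.31, and that of all tested genes together, with sign, was 0.003. At least 2-fold changes were found for 49 higher and 64 lower genes, and at least 4-fold changes for 13 higher and 7 lower genes. The split into higher and lower depends on scaling: 37.9% of calls were higher with trimmed-mean scaling, 47.6% with upper-quartile scaling, and 63.8% (1530 higher, 867 lower) when library totals alone were used. No gene called here changed sign in any alternative fit. A fit of the 2 groups alone, with the spread taken from their 4 libraries, called 604 genes higher and 1069 lower. Calls were most sensitive to Tub B replicate 2, without which 229 genes were higher and 486 lower. Without Tub B replicate 1 they were 454 and 809, and without mock replicate 1 there were 456 higher. The CPM of the mock and Tub B libraries did not overlap for 52.7% of all tested genes, so lack of overlap alone says little with 2 libraries a group.

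**Figure D1:**
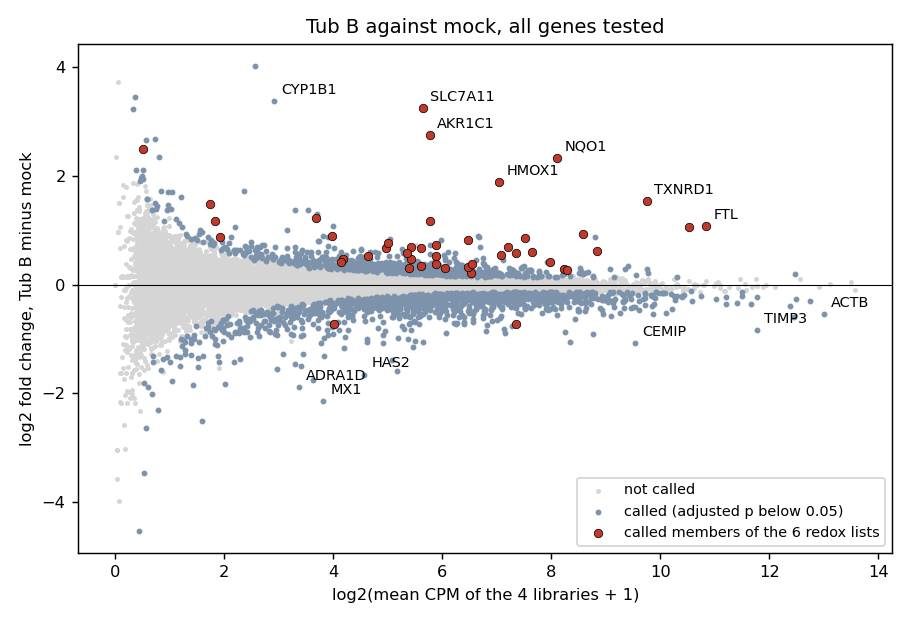
Log2 fold change of Tub B against mock for each of the 16647 genes tested (y axis) against log2 of the mean CPM of the 4 libraries plus 1 (x axis). Grey points did not pass the test, blue points did, and red points are called members of the 6 redox gene lists, with SLC7A11, AKR1C1, NQO1, HMOX1, TXNRD1 and FTL named.

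Gene lists showed where the calls gathered. They were chosen with earlier results of these data known, so part of that gathering may come from the choice, and no list was tested. Over all 51 lists, 95 of 820 tested members rose (11.6%) and 190 fell (23.2%), against 4.83% and 7.91% of all genes. Counts within a list are to be read beside both shares. In 6 lists on redox metabolism (NRF2 regulators, glutathione, thioredoxin, NADPH, quinone and carbonyl reductases, heme and iron), with 77 distinct members that were all tested, 43 members rose (55.8%, against 4.83% of all genes) and 2 fell (2.60%, against 7.91%). These 43 genes made up 36.2% of the CPM gained by all genes that rose (5244 of 14495 CPM). Most of that gain lay in the abundant genes FTL, FTH1 and TXNRD1, and the ferritin genes have pseudogenes that may share reads. They included 12 of the 49 genes with at least 2-fold gains, and the 6 lists held 0 of the 64 genes with at least 2-fold falls. In 5 lists on the cytoskeleton and matrix (contractile, collagen, elastic fibre and matricellular, YAP, TGF-β), 42 of 96 tested members fell (43.8%) and 4 rose (4.17%). The 42 genes made up 18.4% of the CPM lost by all genes that fell (8944 of 48540 CPM). Of the 43 redox genes that rose, 35 were also called when each of the 4 libraries was left out in turn, as were 26 of the 42 cytoskeleton and matrix genes that fell. Over all genes, 179 of 804 higher and 408 of 1316 lower calls were made in each of those 4 fits.

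**Figure D2:**
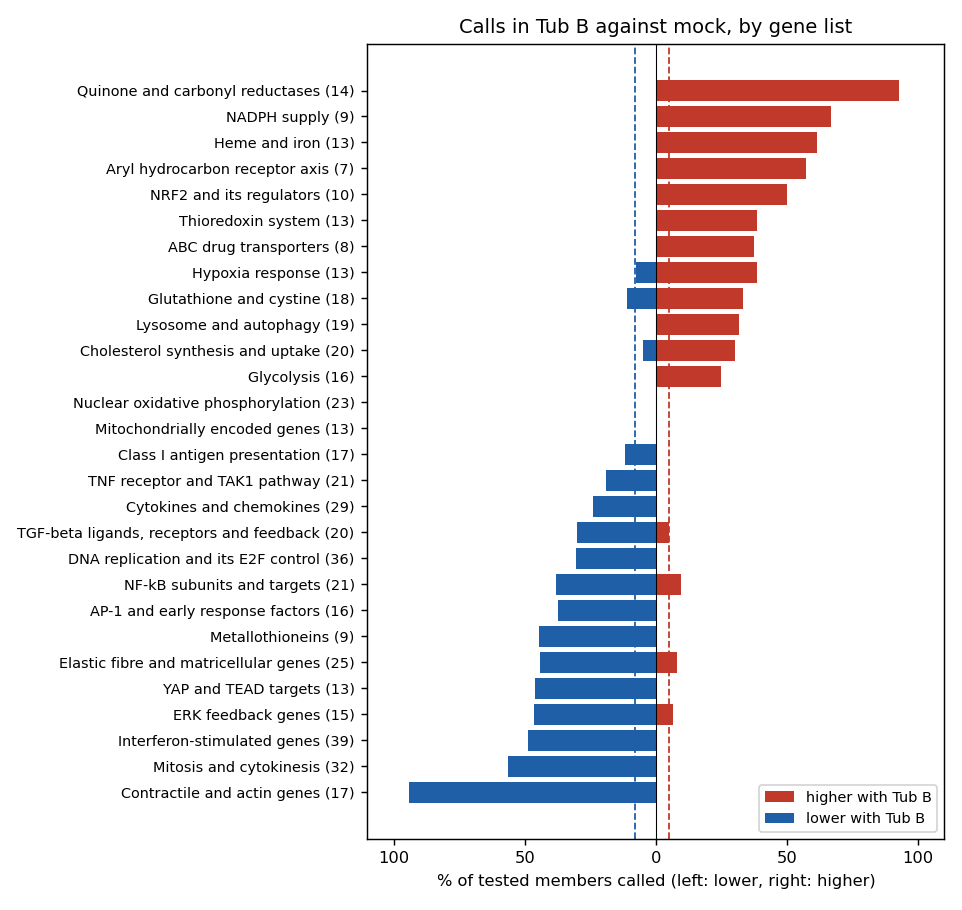
Percentage of the tested members of 28 gene lists called higher (right, red) or lower (left, blue) with Tub B than in mock, with the number of tested members in parentheses. Dashed lines mark the same percentages over all genes, 4.83% higher and 7.91% lower, and the redox lists lie far to the right while contractile, mitosis and interferon-stimulated genes lie far to the left.

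Cystine uptake and glutathione genes held the largest change of the redox lists. SLC7A11, the cystine carrier of the cystine/glutamate exchanger, had 9.35 and 9.30 CPM in the mock libraries and 76.7 and 101 CPM in the Tub B libraries. Both Tub B libraries lay far above both mock libraries, a log2 fold change of 3.25 ± 0.12 (adjusted p = 4.69e-12). Libraries were not stranded, so reads of its antisense partner cannot be told apart. SLC3A2, the heavy chain of the same exchanger, rose by 0.32 on the log2 scale (adjusted p = 0.00022). GCLM, the regulatory subunit of glutamate-cysteine ligase, which makes the first step of glutathione synthesis, had 65.9 and 60.9 CPM in the mock libraries and 112 and 113 CPM in the Tub B libraries. Its groups were clearly apart (0.82 ± 0.05, adjusted p = 1.18e-08), while the catalytic subunit GCLC, at 18.3 ± 1.59 and 21.1 ± 1.57 CPM, did not pass (0.21 ± 0.10, adjusted p = 0.184). GSR, which regenerates reduced glutathione, rose by 0.72, and MGST1, a membrane-bound glutathione transferase, by 0.54. In the opposite direction, GPX1, the cytosolic selenium-dependent glutathione peroxidase, fell from 203 ± 1.41 to 123 ± 10.0 CPM (−0.72 ± 0.05, adjusted p = 5.82e-08), and CHAC1, which degrades glutathione, by 0.72. Of 18 glutathione and cystine genes, 6 rose and 2 fell, and the median was 0.11.

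Promoter sequences were searched for the short core that NRF2 and small MAF proteins bind, TGACNNNGC, on both strands of the 250 bases before each gene's start. Among redox-list members that rose and had a promoter entry, 11 of 31 held it (35.5%), against 3 of 22 members that did not pass (13.6%) and 13.2% of the 27305 genes in the RefSeq promoter table (GRCh38.p14). A match is a description of the letters and was not tested as a binding site. Stretches of 3 members that rose are shown, 5′ to 3′ along the gene's strand, with the match in capitals, because they are the thioredoxin, glutathione and NADPH genes described here.
TXNRD1: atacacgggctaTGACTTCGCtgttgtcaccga
GCLM: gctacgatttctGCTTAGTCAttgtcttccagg
PGD: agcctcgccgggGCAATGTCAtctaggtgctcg
The TXNRD1 stretch lies at chr12:104215668-104215700 on the plus strand, from 111 to 79 bases before the gene's start. The GCLM stretch, at chr1:93909444-93909476 on the minus strand, lies 46 to 14 bases before the start and holds the core on the opposite strand. For PGD the stretch is chr1:10398851-10398883 on the plus strand, 213 to 181 bases before the start, again with the core on the opposite strand.

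The thioredoxin system, which reduces protein disulfides with electrons from NADPH, was led by its reductase. TXNRD1, thioredoxin reductase, had 438 and 456 CPM in the mock libraries and 1247 and 1329 CPM in the Tub B libraries (1.53 ± 0.05, adjusted p = 4.18e-12). Its substrate thioredoxin, TXN, rose by 0.59, and SRXN1, sulfiredoxin, which repairs overoxidised peroxiredoxins, by 0.90 on the log2 scale. PRDX1, the cytosolic peroxiredoxin that sulfiredoxin serves, rose by 0.41. TXNIP, which binds and inhibits thioredoxin, also rose (32 ± 2.23 to 47.8 ± 1.16 CPM, 0.58 ± 0.06). These were the 5 of 13 members that passed, and all 5 were also called without each of the 4 libraries in turn. The list median was 0.01, since the other 8 members moved little.

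NADPH-supplying enzymes rose together. PGD, an NADPH-producing enzyme of the pentose phosphate pathway, had 135 and 127 CPM in the mock libraries and 232 and 241 CPM in the Tub B libraries (0.85 ± 0.05, adjusted p = 4.9e-09). TKT and TALDO1, transketolase and transaldolase of the non-oxidative branch of that pathway, rose by 0.63 and 0.58 on the log2 scale. ME1, cytosolic malic enzyme, and IDH1, cytosolic isocitrate dehydrogenase, rose by 0.69 and 0.37. In all, 6 of 9 members rose with a median of 0.58, and these 6 calls were made without each library in turn.

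Quinone and carbonyl reductases formed the list with the highest share of higher members, 13 of 14, with a median of 0.67. NQO1, which reduces quinones with NADPH and is a standard marker of NRF2 activity, had 88.9 and 93.4 CPM in the mock libraries and 437 and 483 CPM in the Tub B libraries. The groups were apart by a log2 fold change of 2.34 ± 0.06 (adjusted p = 1.77e-14). AKR1C1, an aldo-keto reductase that acts on steroids and reactive aldehydes, had 16.5 and 10.4 CPM in mock and 79.1 and 108 CPM with Tub B (2.75 ± 0.17), and AKR1C3 rose by 1.48. AKR1C genes are near-identical copies, and their reads may be shared, so these values are uncertain. AKR1B1, aldose reductase, which has fewer close copies, rose by 0.29. OSGIN1, an oxidative stress-induced growth inhibitor, had 7.93 and 6.03 CPM in mock and 15.8 and 17.7 CPM with Tub B (1.23 ± 0.13). EPHX1, microsomal epoxide hydrolase, rose by 0.67, and UGDH, which makes UDP-glucuronate for conjugation and for hyaluronan, by 0.37. Calls without each library in turn held for 10 of the 13. Outside the list, PIR, a nuclear iron-binding protein, rose by 1.72 and TRIM16, a ubiquitin ligase with a near-identical neighbour gene, by 1.36.

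**Figure D3:**
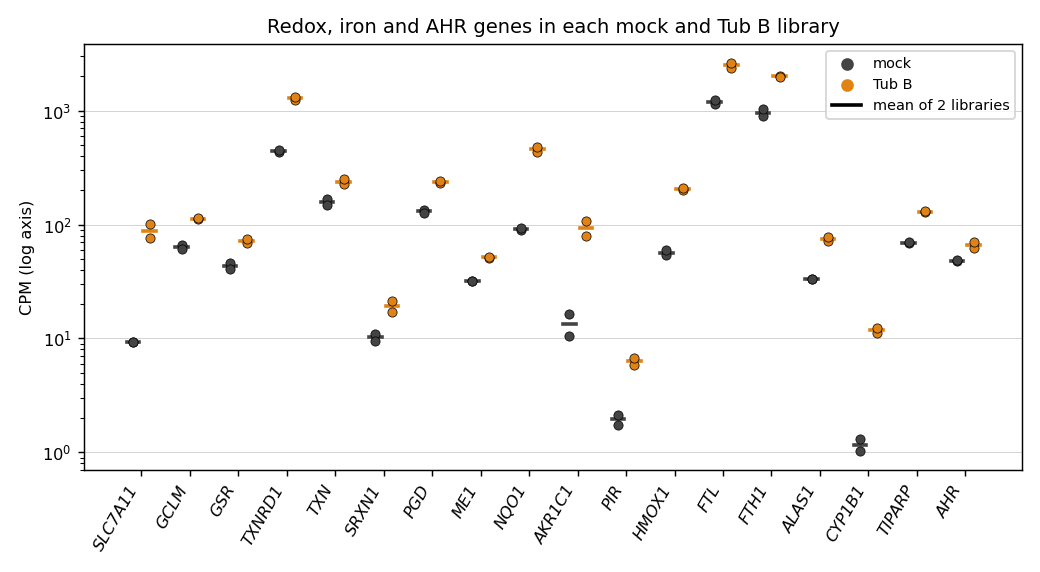
CPM (log axis) of 18 redox, iron and aryl hydrocarbon receptor genes in the 2 mock (dark) and 2 Tub B (orange) libraries, with a bar at the mean of each pair. For each gene shown, both Tub B libraries lie above both mock libraries, with CYP1B1 the lowest of them in mock.

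Heme breakdown and iron storage rose as well. HMOX1, heme oxygenase, which splits heme and frees its iron, had 53.5 and 59.3 CPM in the mock libraries and 203 and 211 CPM in the Tub B libraries (1.88 ± 0.06, adjusted p = 3.57e-12). FTL and FTH1, the light and heavy chains of ferritin, which stores iron, stood at 1185 ± 67.8 and 962 ± 95.8 CPM in mock and at 2497 ± 151 and 1998 ± 12.4 CPM with Tub B. Each ferritin chain thus about doubled (1.08 ± 0.05 and 1.06 ± 0.06), although both have many processed pseudogenes that may share reads. ALAS1, the first enzyme of heme synthesis, had 33.2 and 33.5 CPM in mock and 71.9 and 77.3 CPM with Tub B (1.16 ± 0.06). FECH, the last enzyme of heme synthesis, rose by 0.53 and SLC48A1, a heme transporter, by 0.76. Of 13 members, 8 rose, with a median of 0.53, and 7 of those calls were made without each library in turn.

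Among NRF2 and its regulators, 5 of 10 members rose. SQSTM1 (p62), which can sequester KEAP1 for autophagy, changed most, from 262 ± 0.125 to 499 ± 31 CPM (0.93 ± 0.05, adjusted p = 1.07e-09). MAFG, a small MAF partner of NRF2, rose by 0.46 (adjusted p = 0.000106). NFE2L2 itself had 58 and 59.7 CPM in the mock libraries and 68.9 and 75.6 CPM in the Tub B libraries, a small rise (0.30 ± 0.06, adjusted p = 0.00222) that did not pass without Tub B replicate 2 (0.23, adjusted p = 0.0752). KEAP1 stood at 87.4 and 80.5 CPM in mock and 97.2 and 98.4 CPM with Tub B (0.22 ± 0.05, adjusted p = 0.0116). It did not pass without mock replicate 2 (0.16, adjusted p = 0.0747), Tub B replicate 1 (0.23, adjusted p = 0.0601) or Tub B replicate 2 (0.21, adjusted p = 0.11). Without Tub B replicate 2, the list kept 2 calls. Among 8 ABC transporters that export drugs and conjugates, 3 rose (against 4.83% of all genes). ABCC3, an exporter of conjugates, changed by 0.82 ± 0.07 and ABCC1, an exporter of glutathione conjugates, by 0.30 ± 0.05.

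Targets of the aryl hydrocarbon receptor rose too. CYP1B1, a cytochrome P450 that oxidises polycyclic aromatic compounds and oestrogens, had 1.03 and 1.30 CPM in the mock libraries and 11.2 and 12.5 CPM in the Tub B libraries. Its log2 fold change of 3.38 ± 0.18 (adjusted p = 1.07e-09) exceeded that of SLC7A11. TIPARP, an ADP-ribosyltransferase that feeds back on the receptor, had 68.7 and 70.4 CPM in mock and 128 and 131 CPM with Tub B (0.90 ± 0.05, adjusted p = 1.07e-09). AHR, the receptor gene, rose from 48.3 ± 0.932 to 66.4 ± 5.92 CPM (0.46 ± 0.06, adjusted p = 0.000103). CYP1A1, the classical target, had 2 and 5 counts in mock and 11 and 15 with Tub B, a ratio of scaled counts of 4.14 (95% counting interval 1.75 to 11.3). It passed (2.00 ± 0.59, adjusted p = 0.0316), but not without mock replicate 1 (1.15, adjusted p = 0.391), Tub B replicate 1 (2.26, adjusted p = 0.0733) or Tub B replicate 2 (1.69, adjusted p = 0.272). AHRR, the repressor of the receptor, had 6.08 and 6.54 CPM in mock and 8.31 and 8.21 CPM with Tub B and did not pass (0.40 ± 0.13, adjusted p = 0.062). It passed with library totals (0.45, adjusted p = 0.0302), upper-quartile scaling (0.42, adjusted p = 0.0498) and the crossed replicate term (0.39, adjusted p = 0.0492). CYP1B1, TIPARP, AHR and CYP1A1 were the 4 called genes among 7 tested members of the list. The core letters of the receptor's binding site, GCGTG, were found before 2 of 3 members that rose and had a promoter entry (66.7%), 1 of 2 that did not pass (50%) and 36.2% of all genes in the table. Metallothioneins, which bind zinc and copper, moved the other way: 4 of 9 fell with a median of −0.47. MT2A had 992 and 827 CPM in mock and 658 and 655 CPM with Tub B (−0.47 ± 0.07), and MT1E, a near-identical copy of its neighbours and therefore uncertain, fell by 0.76. Without Tub B replicate 2, 2 of the 4 calls were made.

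Contractile and actin genes fell almost throughout the list. ACTB, cytoplasmic β-actin, had 9391 and 10008 CPM in the mock libraries and 7106 and 6242 CPM in the Tub B libraries (−0.54 ± 0.05, adjusted p = 3.34e-06). ACTG1, γ-actin, had 6429 and 7081 CPM in mock and 4807 and 4132 CPM with Tub B (−0.60 ± 0.06), and both actin genes have pseudogene copies. Proteins that bind and cross-link actin fell with them. CNN1 and CNN2, calponins, fell by 0.84 and 0.64 on the log2 scale, FLNA and FLNC, filamins, by 0.39 and 0.36, and MYH9, non-muscle myosin, by 0.36. LMOD1, leiomodin, which nucleates actin filaments, had 45.6 and 63.4 CPM in mock and 29.5 and 24.1 CPM with Tub B (−1.01 ± 0.12). SRF, the transcription factor that controls many actin genes, fell from 89.8 ± 0.849 to 64.7 ± 4.34 CPM (−0.47 ± 0.05), and TAGLN, transgelin, by 0.42. In the contractile list, which does not hold ACTB, ACTG1, FLNC or MYH9, 16 of 17 members fell (against 7.91% of all genes), with a median of −0.47, and 12 of those calls were made without each library in turn. All 17 members were higher in mock replicate 2 than in mock replicate 1. Without mock replicate 2, 14 members fell with a median of −0.37.

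Targets of YAP and TEAD, transcriptional regulators that respond to cell shape and tension, fell in part, 6 of 13. Of the 13, 11 were higher in mock replicate 2 than in mock replicate 1. The list median was −0.16, and −0.08 without mock replicate 2. CTGF, a matricellular growth factor and standard YAP target, had 593 and 715 CPM in the mock libraries and 474 and 398 CPM in the Tub B libraries (−0.58 ± 0.07, adjusted p = 4.92e-05). CRIM1, a membrane protein that binds growth factors, fell by 0.29. CYR61, another standard target, had 809 and 884 CPM in mock and 815 and 762 CPM with Tub B and did not pass (−0.10 ± 0.05, adjusted p = 0.184), except without mock replicate 1 (−0.17, adjusted p = 0.0284). Without Tub B replicate 2, the list held 3 calls. In the TGF-β list, 6 of 20 members fell and 1 rose, and 16 of the 20 were higher in mock replicate 2 than in mock replicate 1. SMAD6, an inhibitory SMAD, fell from 42.9 ± 0.474 to 34 ± 1.53 CPM (−0.33 ± 0.06), ID3, an inhibitor of differentiation, by 0.30, and LTBP1, which anchors latent TGF-β, by 0.29.

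Matrix genes changed selectively. ELN, elastin, had 487 and 644 CPM in the mock libraries and 327 and 272 CPM in the Tub B libraries (−0.91 ± 0.10, adjusted p = 1.37e-05), and its mock libraries differed from each other by more than its Tub B libraries did. TNC, tenascin C, had 719 and 725 CPM in mock and 516 and 492 CPM with Tub B (−0.52 ± 0.04), and VCAN, versican, and LOXL4, a lysyl oxidase that cross-links collagen and elastin, fell by 0.46 and 0.42. Of 25 elastic fibre and matricellular genes, 11 fell and 2 rose, and 23 of the 25 were higher in mock replicate 2 than in mock replicate 1. Lower calls were 5 without Tub B replicate 2, 8 without mock replicate 2 and 14 without mock replicate 1. Both higher calls were lost without mock replicate 1 or either Tub B library. TIMP3, a matrix-bound inhibitor of metalloproteinases, showed the clearest fall of an abundant gene, from 4449 and 4577 CPM in mock to 2551 and 2475 CPM with Tub B (−0.84 ± 0.04, adjusted p = 3.14e-10). Collagen chains mostly did not pass, with 3 of 21 lower (1 without Tub B replicate 2) and 1 higher. COL1A1 had 6962 and 8812 CPM in the mock libraries and 8038 and 7251 CPM in the Tub B libraries, overlapping values (−0.04 ± 0.07, adjusted p = 0.77), and passed only without mock replicate 1 (−0.21, adjusted p = 0.00869), when 8 collagen genes were lower. COL11A1, a minor fibrillar collagen, fell from 19.1 ± 6.82 to 7.46 ± 1.52 CPM (−1.31 ± 0.20), and COL5A3, of type V collagen, rose by 0.58. Collagenase MMP1 had 303 and 224 CPM in mock and 265 and 261 CPM with Tub B, so that both Tub B values lay between the mock values (−0.01 ± 0.09, adjusted p = 0.973). Its difference was 0.23, adjusted p = 0.0129 without mock replicate 1 and −0.20, adjusted p = 0.0155 without mock replicate 2. MMP3, stromelysin, stood at 3318 ± 65.6 and 3568 ± 60.7 CPM (0.10 ± 0.04, adjusted p = 0.115) and passed with library totals (0.16, adjusted p = 0.0103) and without a filter (0.09, adjusted p = 0.0367). In the coagulation list, PLAT, tissue plasminogen activator, fell by 0.64 and SERPINB2, a plasminogen activator inhibitor, rose by 0.55.

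Among 10 genes for hyaluronan synthesis and binding, 2 fell, 1 rose and 7 did not pass, with a median of −0.007. Of all genes 7.91% fell, and of the tested members of all 51 lists 23.2%. The gene that rose was UGDH, given above with the reductases. HAS2, the main hyaluronan synthase of these cells by CPM, had 37.4 and 31.4 CPM in the mock libraries and 10.9 and 11.1 CPM in the Tub B libraries. The groups were far apart (−1.66 ± 0.10, adjusted p = 6.37e-09), and reads of its antisense RNA cannot be told apart. CEMIP, which binds hyaluronan and promotes its breakdown, had 774 and 1234 CPM in the mock libraries and 547 and 398 CPM in the Tub B libraries (−1.08 ± 0.16, adjusted p = 0.000156), with a wide gap between the mock libraries. CD44, the hyaluronan receptor, was at 2055 ± 9.57 and 2093 ± 7.74 CPM (0.03 ± 0.04, adjusted p = 0.725). Among simple keratins, which fibroblasts in culture can express, KRT18 had 15.1 and 20.0 CPM in mock and 6.21 and 3.90 CPM with Tub B (−1.76 ± 0.18), and KRT7 and KRT19 fell by 0.90 and 0.67. These were the 3 called genes among 8 tested keratin and epithelial markers. Of 12 tested synovial fibroblast markers, 3 fell and the others did not pass, and 1 fell without Tub B replicate 2 or with library totals. The mesenchymal cadherin CDH11, which holds synoviocytes together, fell from 458 ± 25 to 340.0 ± 24.3 CPM (−0.43 ± 0.05).

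**Figure D4:**
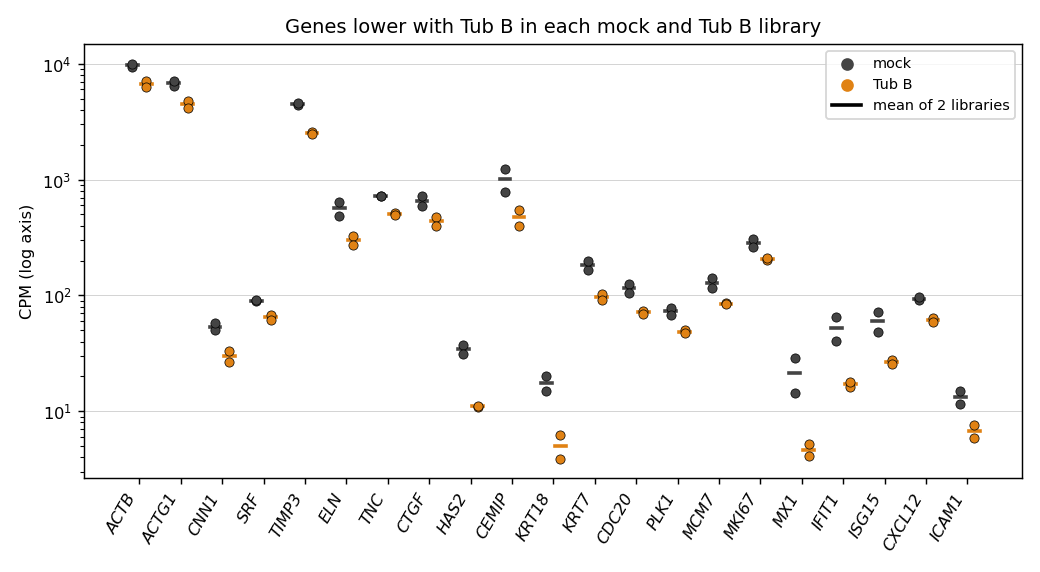
CPM (log axis) of 21 genes that were lower with Tub B, in the 2 mock (dark) and 2 Tub B (orange) libraries, with a bar at the mean of each pair. For each gene both Tub B libraries lie below both mock libraries, and the mock libraries are widest apart for CEMIP and for the interferon-stimulated genes MX1, IFIT1 and ISG15.

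Cell division genes were lower with Tub B. CDC20, an activator of the anaphase-promoting complex, had 124 and 105 CPM in the mock libraries and 73.9 and 69.8 CPM in the Tub B libraries (−0.68 ± 0.07, adjusted p = 3.36e-06). PLK1, a mitotic kinase, and KIF20A, a kinesin of cytokinesis, fell by 0.59 and 0.53, and CCNB1, cyclin B, and CDCA8, of the chromosomal passenger complex, by 0.38 and 0.49. MKI67, the proliferation marker, had 307 and 264 CPM in mock and 201 and 212 CPM with Tub B (−0.47 ± 0.06, adjusted p = 3.99e-05). CDK1, the mitotic cyclin-dependent kinase, did not pass (−0.22 ± 0.09, adjusted p = 0.114), except without mock replicate 2 (−0.33, adjusted p = 0.011), without a filter (−0.23, adjusted p = 0.0273) and with the crossed replicate term (−0.21, adjusted p = 0.0441). Of 32 mitosis genes, a list without MKI67, 18 fell, with a median of −0.33, and 9 of those calls were made without each library in turn. In bulk RNA, fewer dividing cells and less RNA per dividing cell cannot be told apart. Among 36 genes of DNA replication and its E2F control 11 fell, with a median of −0.23. MCM7, a subunit of the replicative helicase, had 141 and 117 CPM in mock and 86.4 and 83.7 CPM with Tub B (−0.61 ± 0.07). UHRF1, which maintains DNA methylation, also fell (−0.57 ± 0.08). The E2F factors E2F8 and E2F2 had larger falls (−0.91 and −0.77), which shrank to −0.35 and −0.27 without mock replicate 1. The mock libraries differed here: 34 of the 36 replication genes and 30 of the 32 mitosis genes were higher in mock replicate 1 than in mock replicate 2. Replication calls were 26 without mock replicate 2 and 4 without mock replicate 1, Tub B replicate 1 or Tub B replicate 2, with medians of −0.37 without mock replicate 2 and −0.03 without mock replicate 1. With library totals 6 replication genes fell and with DESeq2 5. Mitosis calls were 11 without Tub B replicate 1. Part of these falls therefore moved with the mock libraries; what set those apart was not tested. CCND1, cyclin D1, which drives entry into the cell cycle, fell from 3767 ± 113 to 3225 ± 123 CPM (−0.22 ± 0.04). CDKN1A, the p21 inhibitor, stood at 805 ± 71.6 and 830.5 ± 13.5 CPM (0.05 ± 0.05, adjusted p = 0.637), and passed without mock replicate 2 (0.14, adjusted p = 0.0487).

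Interferon-stimulated genes, which are switched on by interferon through STAT and IRF factors, were lower with Tub B without any TNF being given. MX1, an antiviral GTPase, had 14.4 and 28.8 CPM in the mock libraries and 5.18 and 4.10 CPM in the Tub B libraries (−2.14 ± 0.39, adjusted p = 0.00122). IFIT1, which binds viral RNA, had 40.3 and 64.7 CPM in mock and 16.1 and 18 CPM with Tub B (−1.60 ± 0.25), and ISG15, a ubiquitin-like modifier, 48.4 and 71.3 and 27.8 and 25.4 CPM (−1.14 ± 0.16). OAS3, an oligoadenylate synthetase, fell by 1.39. Of 39 members 19 fell, with a median of −0.72. Here too the mock libraries stood apart, as 36 of the 39 genes were higher in mock replicate 2, and the list summed to 1083 and 1478 CPM in mock against 877 and 889 CPM with Tub B. Calls were 22 without mock replicate 1, 11 without mock replicate 2 and 6 without either Tub B library, with medians from −0.95 to −0.51. Of the 19 calls, 6 were made in each of those fits. DESeq2 called 11 and limma-voom 13, whereas 32 were lower without a filter, 30 with the replicate block, 31 with the crossed pairing and 26 in a fit of the 2 groups alone. Genes for class I antigen presentation were mostly not called, with 2 of 17 lower (against 7.91% of all genes). Yet 15 of the 17 were higher in mock replicate 2 than in mock replicate 1. Lower calls were 3 without mock replicate 1, 1 without mock replicate 2 or either Tub B library, 5 without a filter and 4 with the replicate block. PSME2, a proteasome activator subunit, fell from 60.1 ± 0.821 to 47.7 ± 1.18 CPM (−0.33 ± 0.05).

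Stretches of 2 interferon-stimulated promoters are shown because both genes fell and hold more than 1 copy of the core GAAANNGAA that interferon-activated factors bind (capitals, either strand, copies may overlap).
IFIT1: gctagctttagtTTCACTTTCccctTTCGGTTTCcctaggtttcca
ISG15: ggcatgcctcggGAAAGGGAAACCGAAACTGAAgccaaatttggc
The IFIT1 stretch is chr10:89392496-89392541 and the ISG15 stretch chr1:1013372-1013416, both on the plus strand of GRCh38.p14 and starting 127 and 125 bases before the gene's start. The core was found before 10 of 16 members that fell (62.5%), 10 of 15 that did not pass (66.7%) and 8.41% of all genes in the table. Members that fell and members that did not pass thus held the core at similar shares, both above all genes. The cell cycle core TTTGAA was found in mitosis genes before 8 of 16 that fell (50%), 8 of 12 that did not pass (66.7%) and 16.1% of all genes.

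In the TNF receptor and TAK1 pathway 4 of 21 members fell and 0 rose, with a median of −0.03. Of all genes 7.91% fell, and of the tested members of all 51 lists 23.2%, so this list shows no excess over listed genes. MAP3K7 had 58.4 and 64.9 CPM in the mock libraries and 67.4 and 64.4 CPM in the Tub B libraries, overlapping values that did not pass (0.10 ± 0.06, adjusted p = 0.327). MAP2K3, a kinase upstream of p38, was the one of the 4 called without each library in turn (288 ± 16.4 to 211 ± 14 CPM, −0.45 ± 0.05). Lower calls were 1 without either Tub B library and 2 without either mock library.

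Cytokines were low in these unstimulated cells, and those that passed were lower with Tub B. Beside the counts below stand 7.91% lower and 4.83% higher over all genes. Over the tested members of all 51 lists the shares were 23.2% and 11.6%. The cytokine list was close to the listed genes in its share of falls. CXCL12, a chemokine of stromal cells, had 91.4 and 96.2 CPM in the mock libraries and 64 and 59.3 CPM in the Tub B libraries (−0.60 ± 0.05, adjusted p = 7.43e-07). CCL2, which attracts monocytes, had 20.9 and 23.6 CPM in mock and 15 and 13.9 CPM with Tub B (−0.61 ± 0.09, adjusted p = 0.000148). IL6 was near the limit of testing at 1.21 and 1.64 and 0.793 and 0.861 CPM (−0.73 ± 0.30, adjusted p = 0.133), and CXCL8, a neutrophil chemokine, at 17.2 and 13.9 and 13.3 and 14.5 CPM, overlapped between the groups (−0.19 ± 0.11, adjusted p = 0.332). Of 29 tested cytokines and chemokines 7 fell, with 3 of these calls made without each library in turn, and without Tub B replicate 1, Tub B replicate 2 and the mock replicates the counts were 4, 3, and 5 each. Among 21 NF-κB subunits and targets, 8 fell and 2 rose, and the 2 higher calls were lost without mock replicate 1 or either Tub B library. Lower calls were 5 without Tub B replicate 2, 4 of the 8 were made without each library in turn, and 16 of the 21 members were higher in mock replicate 2 than in mock replicate 1. ICAM1, an adhesion molecule for leukocytes, had 11.4 and 14.9 CPM in mock and 7.56 and 5.83 CPM with Tub B (−0.94 ± 0.13, adjusted p = 8.45e-05), and RELB, a subunit of the non-canonical pathway, fell by 0.58. TNFAIP3 (A20), a feedback inhibitor, fell from 26.6 ± 1.65 to 21.2 ± 0.168 CPM (−0.32 ± 0.06, adjusted p = 0.00332). NFKBIA, the IκBα gene, had 28 and 33.8 CPM in mock and 24.4 and 23.8 CPM with Tub B (−0.34 ± 0.08, adjusted p = 0.00652) and did not pass without mock replicate 2 (−0.22, adjusted p = 0.0539) or Tub B replicate 2 (−0.33, adjusted p = 0.0881). PTGS2, cyclooxygenase 2, fell from 54.9 ± 6.28 to 37.9 ± 3.57 CPM (−0.52 ± 0.09, adjusted p = 0.00108), a call lost without Tub B replicate 2 (−0.43, adjusted p = 0.0523). PTGS1, the constitutive cyclooxygenase, rose by 0.25.

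Among 22 growth factor ligands and receptors 5 fell (3 without Tub B replicate 2) and 1 rose (3 without mock replicate 2 and 2 without Tub B replicate 1). For each list of this paragraph, 7.91% of all genes fell and 4.83% rose. Among the tested members of all 51 lists, 23.2% fell and 11.6% rose. The growth factor list was close to the listed genes in its share of falls and showed no excess of rises. ERRFI1, an inhibitor of the EGF receptor, had 91.2 and 95.5 CPM in mock and 56.8 and 55.5 CPM with Tub B. Its difference was −0.73 ± 0.05 (adjusted p = 5.82e-08), and EPHA2, an ephrin receptor, fell by 0.60. DUSP5, a phosphatase of nuclear ERK, and SPRY4, a feedback inhibitor of receptor tyrosine kinases, fell by 0.60 and 0.48. Of the 15 genes on the ERK feedback list, which leaves out ERRFI1, 7 fell and 1 rose, with 4 lower calls without Tub B replicate 2. EREG, an EGF family ligand, rose from 29 ± 0.542 to 45.4 ± 0.683 CPM (0.65 ± 0.06), whereas FGF1 and FGF5, fibroblast growth factors, fell by 0.84 and 0.51. STC2, stanniocalcin, a secreted glycoprotein that inhibits cleavage of IGF binding proteins, had 299 and 334 CPM in mock and 555 and 601 CPM with Tub B (0.87 ± 0.06, adjusted p = 1.86e-08). IGFBP3 and IGFBP5, binding proteins of insulin-like growth factors, fell by 0.45 and 0.47. In the WNT and Notch list 9 of 26 fell, with 5 without Tub B replicate 2 and 6 with library totals, and FZD4 and FZD7, Frizzled receptors, and WNT5B, a ligand, fell by 0.80, 0.53 and 0.41. Among 16 AP-1 and early response genes 6 fell. In fits without 1 library, lower calls were 3 without mock replicate 2 (with 1 higher), 4 without mock replicate 1 or Tub B replicate 1, and 0 without Tub B replicate 2, where 7 had an unadjusted p below 0.05 in edgeR. DESeq2 over all libraries called 3.

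Stress and metabolic programmes outside the redox lists moved less. For the counts that follow, 4.83% of all genes rose and 7.91% fell. In the unfolded protein response 6 of 18 members fell, among them MANF, a secreted chaperone, by 0.31, and HYOU1, an endoplasmic reticulum chaperone, by 0.28, with 4 calls without Tub B replicate 1. The ATF4 stress list had 4 of 24 members lower and 1 higher, and without mock replicate 1 or Tub B replicate 2 the lower calls were 2. Of 15 cytosolic heat shock genes 3 fell and 1 rose. HSPB1 and CRYAB, small heat shock proteins, fell by 0.53 and 0.44. Cholesterol genes rose in 6 of 20 cases and fell in 1, with INSIG1, a sensor of sterols, rising by 0.58 and SC5D, a late enzyme of the pathway, by 0.38. ABCA1, the cholesterol exporter, rose from 32.8 ± 0.482 to 46.2 ± 4.75 CPM (0.49 ± 0.07), and FASN, fatty acid synthase, fell by 0.28. Hypoxia-responsive genes rose in 5 of 13 cases and fell in 1. NDRG1, a stress-induced gene, rose by 0.74, and BNIP3 and BNIP3L, receptors for removal of mitochondria, by 0.41 and 0.39. Without Tub B replicate 2, 3 hypoxia genes rose and 0 fell. SLC2A1, a glucose transporter outside that list, rose by 0.60. Glycolysis genes rose in 4 of 16 cases, 9 with library totals, 2 without mock replicate 2 and 1 without Tub B replicate 2. Lysosome and autophagy genes rose in 6 of 19 cases, 3 without mock replicate 1 or Tub B replicate 2 and 4 without Tub B replicate 1. Respiratory chain genes did not pass in edgeR for any of 23 nuclear or 13 mitochondrial members, of which 5 and 3 had an unadjusted p below 0.05. For these, DESeq2 called 0 and 0 and limma-voom 0 and 1. PMAIP1 (NOXA), a promoter of cell death, fell by 0.51. Of 24 apoptosis genes 4 fell and 1 rose. Of 20 p53 targets 2 fell and 1 rose, close to the shares over all genes. The 2 lower p53 calls were lost without mock replicate 1 or either Tub B library.

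Several of the largest changes lay outside these programmes. PANX2, a pannexin channel, rose from 7.0 ± 0.303 to 17.1 ± 1.06 CPM (1.30 ± 0.10). ADRA1D, an adrenergic receptor, had 13.7 and 15.7 CPM in the mock libraries and 4.90 and 2.94 CPM in the Tub B libraries (−1.88 ± 0.16, adjusted p = 5.91e-07). NPR3, the clearance receptor for natriuretic peptides, fell by 1.46, DIRAS3, a small GTPase, by 1.27, and NEDD9, a focal adhesion scaffold, by 1.17. LZTS1, a leucine zipper protein that slows the cell cycle, had 5.15 and 5.07 CPM in mock and 1.73 and 2.08 CPM with Tub B (−1.43 ± 0.18). MAP1A, a microtubule-associated protein, was an abundant gene with a small rise, from 602 ± 8.76 to 758 ± 12.2 CPM (0.33 ± 0.04).

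The same compound was also given together with TNF, and that comparison (TNF + Tub B against TNF) shares no library with Tub B against mock. In it 3367 genes were called (20.2% of those tested), 1184 higher and 2183 lower. Of the 2120 genes called with Tub B alone, 367 were called higher and 806 lower in both, and 31 were called in opposite directions. The shared calls were 55.3% of the calls with Tub B alone and 34.8% of those with TNF. Among the 113 genes changed at least 2-fold by Tub B alone, 101 had the same sign with TNF and 65 were called in the same direction. Across these 113 genes the 2 log2 fold changes correlated with a Pearson r of 0.78 and a Spearman rho of 0.73, a description over genes that are not independent and were chosen by 1 of the 2 values. Redox genes recurred: of the 43 that rose with Tub B alone, 38 also rose with TNF, SLC7A11 by 3.22 ± 0.12 and TXNRD1 by 1.39 ± 0.05. Of the 42 cytoskeleton and matrix genes that fell, 40 also fell.

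Whether the response differed with TNF was tested as an interaction, which was called for 705 genes (4.23% of those tested), 227 of them among the 2120. NQO1 rose less with TNF (1.83 ± 0.06 against 2.34 ± 0.06, interaction −0.51 ± 0.08, adjusted p = 0.000586), and so did HMOX1 (1.45 ± 0.06, interaction −0.43 ± 0.09, adjusted p = 0.0073). The interaction of HMOX1 did not pass without Tub B replicate 2 (−0.41, adjusted p = 0.0534) or TNF replicate 2 (−0.38, adjusted p = 0.0604). HAS2 fell less with TNF (−0.76 ± 0.07, interaction 0.90 ± 0.12, adjusted p = 0.00024), and ELN (−1.79 ± 0.11, interaction −0.87 ± 0.15) and CTGF (−1.27 ± 0.08, interaction −0.69 ± 0.11) fell more. Interferon-stimulated genes fell in 38 of 39 cases with TNF, with a median of −2.33 against −0.72 without, and 26 of the 39 passed the interaction test. DNA replication genes went the other way, with a median of 0.32 with TNF and −0.23 without, and 22 of 36 interaction calls, a list whose level without TNF moved with the mock libraries as given above.

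**Figure D5:**
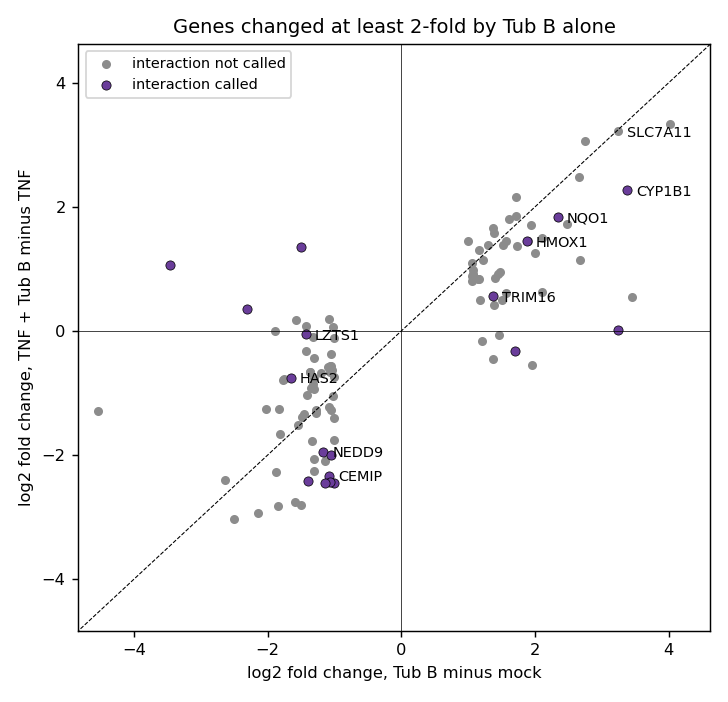
Log2 fold change of TNF + Tub B against TNF (y axis) against that of Tub B against mock (x axis) for the 113 genes changed at least 2-fold by Tub B alone. The dashed line marks equal effects, and purple points are the 18 genes whose interaction passed the test, among them CYP1B1, NQO1 and HMOX1 below the line and HAS2 and LZTS1 above it.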

How the data were processed

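The authors deposited 1 table of gene counts with a column for each of 8 poly(A) RNA libraries. STAR 2.7.0 and featureCounts (no version) are the tools in the submitters' processing notes, which list both mm10 and hg19 as builds and assign neither a role. Per the labels' protocols the library kit does not keep strand. Columns were matched to samples by the descriptions in the labels, with 0 left over.

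The software was DESeq2 1.42.0, edgeR 4.0.16 and limma 3.58.1 in R 4.3.3. After filterByExpr, 16647 genes remained, with trimmed-mean (TMM) scaling. All 8 libraries entered 1 quasi-likelihood fit in edgeR with a term for each group (4 residual and 13.1 prior degrees of freedom, common biological coefficient of variation 4.00%), and the calling threshold was 0.05 after Benjamini-Hochberg adjustment. Steps were tested on simulated counts. Counting intervals cover counting error only. Floors of 3 counts were 0.107 to 0.169 CPM in the 4 libraries compared.

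The 51 gene lists, the genes of the panel and the comparison were chosen with earlier results of these data known, and lists are described by counts and medians without a test. Genes were named by a rule: a panel of 34, the 15 largest changes per direction (at least 5 CPM, no overlap), the 10 largest CPM differences per direction, up to 4 per list, and the 8 largest interactions per direction. Of the 224 genes so selected, 138 are named, preferring calls made without each library in turn, and 86 are left out for space, for uncertain function or because they are not reported here; 24 genes outside the rule are named after their values were seen. Alternatives were other scalings, DESeq2, limma-voom, other filters, a replicate term, a fit of the 2 groups alone, an adjusted p of 0.01 and leaving out each library, which leaves a group with 1 library assumed to vary like the others. MT1, AKR1C, TRIM16, ferritin and actin genes have similar copies. Promoters come from RefSeq (GRCh38.p14); coordinates of the build of the count table were not used here.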

Additional observations from a re-analysis of the deposited data

Results flagged for a closer look

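For these named genes the response to Tub B differed with TNF by the interaction test (log2 difference, TNF + Tub B minus TNF less Tub B minus mock; positive where the value with TNF is the higher one). Among redox and AHR genes, NQO1 (−0.51 ± 0.08) held without each of the 8 libraries, HMOX1 (−0.43 ± 0.09) in 6 of 8 such fits, AHR (−0.43 ± 0.09) in 5 and CYP1B1 (−1.11 ± 0.26) in 4. AHR was lost without Tub B replicate 2 (−0.35, adjusted p = 0.0686), TNF replicate 2 (−0.40, adjusted p = 0.0643) and TNF + Tub B replicate 1 (−0.40, adjusted p = 0.0706). CYP1B1 was lost without mock replicate 1 (−0.92, adjusted p = 0.205), Tub B replicate 2 (−1.04, adjusted p = 0.0794), TNF replicate 2 (−0.97, adjusted p = 0.117) and TNF + Tub B replicate 1 (−1.02, adjusted p = 0.084). HMOX1 was lost without Tub B replicate 2 (−0.41, adjusted p = 0.0534) and TNF replicate 2 (−0.38, adjusted p = 0.0604).

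Matrix genes HAS2 (0.90 ± 0.12), ELN (−0.87 ± 0.15) and CTGF (−0.69 ± 0.11) held in all 8 fits. COL1A1 (−0.50 ± 0.11) did so in 5 and was lost without Tub B replicate 1 (−0.43, adjusted p = 0.0937), TNF replicate 2 (−0.46, adjusted p = 0.0612) and TNF + Tub B replicate 1 (−0.49, adjusted p = 0.0599). The genes TNFAIP3 (−0.47 ± 0.08), PARP14 (−1.96 ± 0.20), BATF2 (−2.84 ± 0.42), GMPR (−2.26 ± 0.30), TNFSF13B (−3.25 ± 0.51) and TNFRSF10D (1.14 ± 0.11) held in all 8. PARP14, BATF2, GMPR and TNFSF13B had effects of 0.02 ± 0.16, 0.16 ± 0.35, −0.09 ± 0.23 and 0.61 ± 0.44 with Tub B alone, none of which passed.

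CCL2 (−0.44 ± 0.10) held in 3 of 8 fits and was lost without mock replicate 1 (−0.35, adjusted p = 0.13), Tub B replicate 1 (−0.40, adjusted p = 0.172), Tub B replicate 2 (−0.50, adjusted p = 0.0553), TNF replicate 2 (−0.41, adjusted p = 0.0813) and TNF + Tub B replicate 1 (−0.38, adjusted p = 0.0859). E2F8 (1.48 ± 0.34), a cell cycle factor, also held in 3, lost without mock replicate 1 (0.91, adjusted p = 0.201), Tub B replicate 1 (1.42, adjusted p = 0.119), Tub B replicate 2 (1.51, adjusted p = 0.0801), TNF replicate 2 (1.33, adjusted p = 0.0642) and TNF + Tub B replicate 1 (1.28, adjusted p = 0.13). CDKN1A (0.26 ± 0.07) and E2F2 (1.16 ± 0.32) each held in 1 of 8: CDKN1A without mock replicate 1 (0.35, adjusted p = 0.000586) and E2F2 without mock replicate 2 (1.44, adjusted p = 0.00111). In the other 7 fits their differences reached adjusted p of 0.258 and 0.436. DTL (0.93 ± 0.17), which marks licensing factors for degradation, and LZTS1 (1.37 ± 0.27) held in 7 of 8, both lost without Tub B replicate 1 (0.80, adjusted p = 0.0523 and 1.23, adjusted p = 0.054).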

How the results depend on the processing

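Of the genes higher with Tub B, 804 in the fit reported, there were 1530 with library totals, 378 with DESeq2 and 350 at an adjusted p of 0.01, and 229 to 814 when each library was left out. Lower genes, 1316, became 867 with library totals and 708 at an adjusted p of 0.01, and 486 to 1316 without each library. At least 2-fold higher genes, 49, became 19 with DESeq2 and 26 at an adjusted p of 0.01 (27 to 45 without each library), and 2-fold lower genes, 64, became 38 with DESeq2 and 100 without a filter (32 to 81). Calls of TNF + Tub B against TNF, 3367, were 2106 at an adjusted p of 0.01 and 2024 to 2388 without each library. Interaction calls, 705, were 421 with DESeq2, 326 at an adjusted p of 0.01 and 306 to 1328. With the replicate number as a block, 956 genes were higher and 1536 lower, and the interaction was called for 914. The labels do not say that a replicate number marks a shared origin, so it was not taken as a pairing. Deviations of same-numbered libraries correlated at −0.126 for mock and Tub B, 0.162 for TNF and TNF + Tub B, 0.22 and 0.216 for mock with these, and −0.003 and 0.073 for Tub B with these. The crossed pairing, chosen after seeing the data, gave 1039 and 1606. MMP1 reversed its sign without mock replicate 1 (0.23, adjusted p = 0.0129) and was −0.20, adjusted p = 0.0155 without mock replicate 2. Genes under about 1 CPM rest on few reads.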

Other observations

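Selenoproteins, a list made after the values were seen, moved in both directions: 3 of 21 tested members rose and 6 fell. Over all genes 4.83% rose and 7.91% fell. Because the values shaped the list, its counts are a description only. TXNRD1 rose (1.53 ± 0.05) and SEPHS2, which makes the selenium donor, rose by 0.36, while GPX1 (−0.72 ± 0.05), SEPW1, a small selenoprotein (103 and 104 CPM in mock, 64.2 and 61.1 CPM with Tub B, −0.73 ± 0.05), and DIO2, which activates thyroid hormone (−0.89 ± 0.11), fell. GPX4, which protects membranes from lipid peroxides, stood at 112 ± 2.86 and 114 ± 0.009 CPM (0.02 ± 0.05, adjusted p = 0.822). With TNF present, 3 rose and 10 fell, in a comparison where 20.2% of all genes were called in either direction.

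Retinoid metabolism and response genes, also listed after the values were seen, fell in 7 of 16 tested cases and rose in 1. The shares over all genes were 7.91% and 4.83%, and here too the values shaped the list. CYP26B1, which degrades retinoic acid, had 13.5 and 14.7 CPM in the mock libraries and 5.83 and 5.68 CPM in the Tub B libraries (−1.29 ± 0.13, adjusted p = 2.86e-06). DHRS3, a retinal reductase, fell by 1.05, NR2F1, a nuclear receptor, by 1.08, TGM2, transglutaminase, by 0.88, and RDH10, which makes retinal, by 0.55. All of these are called lower with TNF too, TGM2 by −0.92 ± 0.06. CXCR4, the receptor of CXCL12, had 21 and 11 counts in mock and 0 and 1 with Tub B, a ratio of 0.0348 (95% counting interval 0.000855 to 0.208).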
